A study of Mus musculus with 4 samples.

Results

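The 10 genes described here encode the sensors, effectors and chaperones of the unfolded protein response, and were chosen by name (Atf6, Ern1, Xbp1, Ddit3, Hspa5, Hsp90b1, Dnajb9, Calr, Pdia4 and Herpud1). All 10 were found among the 22298 genes of the count table and all passed the filter on low counts. RNA-seq was performed on brown adipose tissue (BAT) of C57BL/6 mouse fetuses (C57BL/6J in the study's methods) at E18.5, with 2 libraries from dams drinking sterilized tap water (control) and 2 from dams drinking 20% (w/v) fructose water (fructose) after mating. The number of fetuses or litters behind a library is not given in the sources used here, so that p-values measure only the spread between these libraries, and in bulk tissue fewer cells of a type and less RNA per cell cannot be told apart.

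Secreted and membrane proteins fold in the endoplasmic reticulum (ER), and the unfolded protein response adjusts the folding capacity of this compartment to its load. The response has sensors in the ER membrane, namely ATF6, IRE1α (encoded by Ern1) and PERK (encoded by Eif2ak3). ATF6 is cut in the Golgi to release a transcription factor, IRE1α splices the mRNA of Xbp1, and PERK slows translation and favours ATF4 and its target CHOP (encoded by Ddit3). Their targets include the chaperones BiP (encoded by Hspa5) and GRP94 (encoded by Hsp90b1), and factors of ER-associated degradation such as HERP (encoded by Herpud1). In brown fat, which secretes proteins and builds large membranes and lipid droplets, the ER is also a main site of lipid synthesis.

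Total counts were between 18542897 and 23645147 per library, and a gene with 0 counts could have a level of up to 0.122 to 0.166 CPM (counts scaled to library size with TMM normalization), taken as 3 counts and covering counting error only. The labels give all fetuses as male, but the summed counts of Uty, Kdm5d, Ddx3y and Eif2s3y, which lie on the Y chromosome, were 422 and 390 in control and 0 in both fructose libraries. Maternal drink and whatever this difference marks cannot be told apart here. The tissue label was met by its markers, with summed levels of 14 brown adipocyte genes between 21986 and 25590 CPM in all libraries. Of these 14, 4 were called higher in fructose and 2 lower. Of 12 skeletal muscle markers, 11 were called higher in fructose, from sums of 291 and 377 CPM in control to 840 and 624 CPM in fructose. Of 8 erythroid markers, 5 were called lower, and their sums were 19205 and 15295 CPM in control and 11767 and 12142 CPM in fructose. Of all tested genes, 15.5% were called higher and 10.7% lower. With trends of transcript length and GC content removed (described below), 10 muscle markers were called higher and no erythroid marker was called. The median log2 fold change of the erythroid markers then went from -0.51 to -0.01. The 8 hepatocyte markers summed to at most 0.133 CPM and the 8 pancreatic acinar markers to at most 3.94 CPM. The part of these cell types in the values below was not tested.

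Xbp1 shows what a count per gene can hold. IRE1α removes a short stretch from the Xbp1 mRNA, which shifts the reading frame and gives the active factor. Each cut falls between G and C in the letters CNGCAG, and the stretch between the paired cuts is 26 bases long and lies at chr11:5524279-5524304 (GRCm38, the mm10 build, + strand). It was found in 3 of the annotated Xbp1 transcripts, within coding exon 4 of 5 of Xbp1-201. It is shown here, from the GENCODE transcript and with 10 bases on either side, because reads from mRNA with and without it fall on the same gene count (capitals mark the stretch removed):
Xbp1: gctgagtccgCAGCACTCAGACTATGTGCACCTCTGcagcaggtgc
The values of Xbp1 are therefore total mRNA, and splicing was not measured.

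A DNA element of ER stress genes, the ERSE, is the known site for ATF6 with the factor NF-Y. Its letters, CCAAT and CCACG with 9 bases of any kind between them, were searched on both strands from 250 bases before to 50 bases after each RefSeq start (GRCm38.p6). Promoters were at hand for 9 of the 10 genes (all except Atf6), and 3 of them held the element, namely Hspa5, Hsp90b1 and Calr. Of all 32851 promoters in the table, 0.119% held it. This element is known from ER stress genes, so its presence among genes chosen as such was not a separate result. The related ERSE-II, ATTGG and CCACG with 1 base of any kind between them, was in the promoter of Herpud1 and in 0.0365% of all promoters. The sites are shown with 5 bases on either side, in the direction in which the motif reads, with its fixed letters in capitals:
Hspa5, 65 to 47 bases before the start, chr2:34772020-34772048, + strand: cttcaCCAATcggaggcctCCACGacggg
Hsp90b1, 107 to 89 bases before the start, chr10:86705528-86705556, + strand: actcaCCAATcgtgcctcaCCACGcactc
Hsp90b1, 212 to 194 bases before the start, chr10:86705633-86705661, - strand: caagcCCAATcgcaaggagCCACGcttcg
Calr, 162 to 144 bases before the start, chr8:84847070-84847098, + strand: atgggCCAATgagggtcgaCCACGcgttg
Herpud1 (ERSE-II), 52 to 42 bases before the start, chr8:94386372-94386392, + strand: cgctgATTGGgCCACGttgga
The UPRE core TGACGTGG was in none of the 9 promoters and in 0.676% of all promoters. The C/EBP-ATF response element TGATGNAA, known for ATF4 and CHOP, was in the promoter of Herpud1 alone among the 9 and in 3.97% of all promoters. These are matches of letters, and binding was not measured. No match says only that these letters are not in this window.

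Of the 10 genes, 4 rose in fructose and none fell (edgeR, quasi-likelihood test, Benjamini-Hochberg adjusted p-value below 0.05), a test that called 15.5% of all 12888 tested genes higher and 10.7% lower. The 4 were Dnajb9, Atf6, Hsp90b1 and Hspa5, with folds of 1.68, 1.48, 1.43 and 1.20. In the same 4 genes both fructose libraries lay above both control libraries, which was so for 33.4% of all tested genes, and in none of the 10 did they lie below, which was so for 31.6%. When a fold over 1.3 and an unadjusted p-value below 0.05 were asked for instead, Dnajb9, Atf6 and Hsp90b1 were higher and none was lower, beside 17.6% and 6.18% of all tested genes. The log2 fold change was above 0 in 7 of the 10 genes and below 0 in 3, beside 50.3% and 49.7% of all tested genes. The median log2 fold change of the 10 genes was 0.09, beside 0.0025 over all tested genes. Together the 10 genes held 0.0830% and 0.0801% of all counts in control, against 0.0896% and 0.0875% in fructose.

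**Figure D1:**
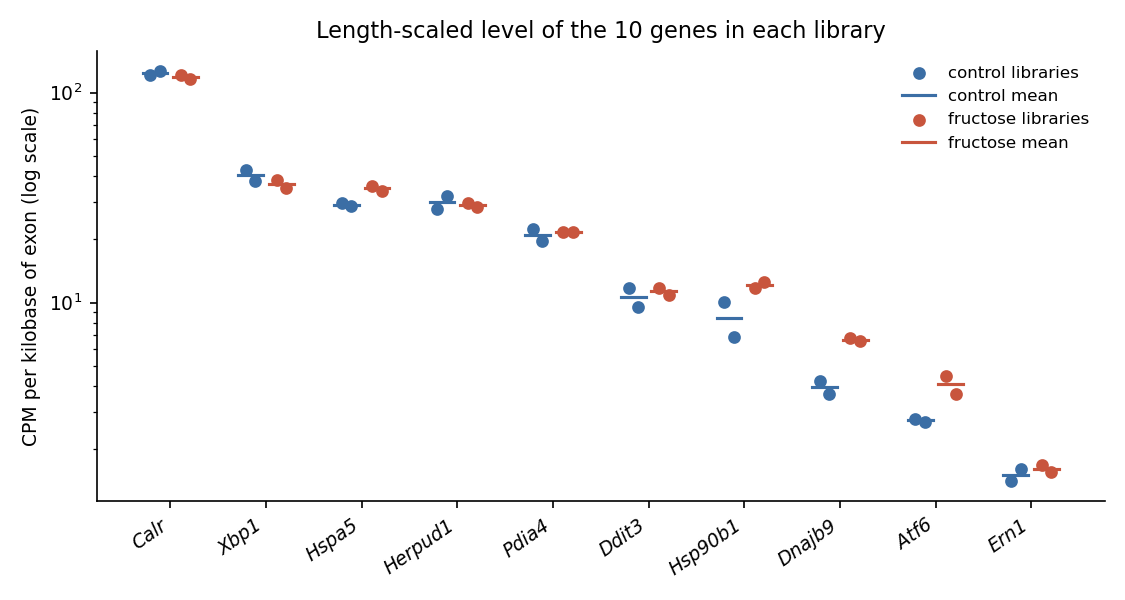
Length-scaled level (CPM per kilobase of exon, log scale) of the 10 genes in each of the 4 libraries, ordered by mean level, with bars at the group means (n = 2 libraries each). The fructose libraries of Hspa5, Hsp90b1, Dnajb9 and Atf6 lie above both control libraries, and those of the other 6 genes overlap with the control libraries.

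Scaled to exon length, the calcium-binding chaperone Calr had by far the highest level of the 10, with 122 and 127 CPM per kilobase in control and 122 and 116 in fructose. In control it was followed by Xbp1 (42.6 and 38.2 CPM per kilobase) and then by Herpud1 (27.9 and 32.2) and Hspa5 (29.7 and 28.8), whose libraries overlapped. Pdia4 came next (22.3 and 19.7), then Ddit3 (11.8 and 9.52) and Hsp90b1 (10.01 and 6.86), which again overlapped. The lowest levels in control were those of Dnajb9 (4.24 and 3.68 CPM per kilobase) and of the sensor genes Atf6 (2.78 and 2.71) and Ern1 (1.41 and 1.61). In fructose, Hspa5 (36.04 and 33.99 CPM per kilobase) no longer overlapped with Herpud1 (29.8 and 28.6) but overlapped with Xbp1 (38.3 and 35.3), and Hsp90b1 (11.7 and 12.5) was still not separate from Ddit3 (11.8 and 10.8). The sensor genes were below each of the other 8 genes on this scale in control, and Dnajb9 was the nearest to them. These orders are of levels within these libraries and were not tested.

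The sensor gene Atf6 (ENSMUSG00000026663, chromosome 1, 170704674 to 170867771) was at 25.7 and 25.0 CPM in control and 41.4 and 33.8 CPM in fructose. Both fructose libraries were above both control libraries, and the fructose libraries differed more from each other than the control libraries did. Atf6 rose by a log2 fold change of 0.57 (standard error 0.11, 95% interval 0.32 to 0.82, edgeR adjusted p = 0.0047). Its value was 0.42 without fructose replicate 1 and 0.71 without fructose replicate 2, and it was called in each case. The other sensor gene of the 10, Ern1 (chromosome 11, 106394650 to 106487852), was at 11.6 and 13.1 CPM in control and 13.7 and 12.7 CPM in fructose. These libraries overlapped, and the difference was not called (log2 fold change 0.10, 95% interval -0.21 to 0.41, adjusted p = 0.65).

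Neither transcription factor gene was called. Xbp1 (chromosome 11, 5520659 to 5525893), the target of IRE1α shown above, was at 138 and 124 CPM in control and 124 and 115 CPM in fructose. Fructose replicate 1 lay just above control replicate 2, so the groups overlapped. The log2 fold change of Xbp1 was -0.14 (95% interval -0.33 to 0.06, adjusted p = 0.28). Ddit3 (chromosome 10, 127290774 to 127296288), whose product CHOP promotes cell death under lasting stress, was at 20.2 and 16.3 CPM in control and 20.2 and 18.6 CPM in fructose. The control libraries of Ddit3 were further apart than the group means (log2 fold change 0.09, 95% interval -0.21 to 0.38, adjusted p = 0.68). A further Ensembl identifier of the same symbol had 0 counts in all libraries and was not used. Exons of Ddit3 share 68 bases with those of Mars, which lies on the opposite strand.

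Among the chaperones, the gene with the largest difference was Dnajb9 (chromosome 12, 44205559 to 44210326), which encodes ERdj4, a co-chaperone of BiP that also holds IRE1α inactive. It was at 10.8 and 9.37 CPM in control and 17.3 and 16.7 CPM in fructose. The gap between the groups was wider than the gap within either. Dnajb9 rose by a log2 fold change of 0.75 (standard error 0.14, 95% interval 0.44 to 1.06, adjusted p = 0.0034).
Hspa5 (chromosome 2, 34771970 to 34777547), which encodes BiP, the main HSP70 chaperone of the ER and a repressor of its sensors, was at 126 and 122 CPM in control and 152 and 144 CPM in fructose. The groups did not overlap, but the difference was small (log2 fold change 0.26, standard error 0.08, 95% interval 0.08 to 0.44, adjusted p = 0.034). This call was lost with DESeq2 (adjusted p = 0.063), and with 3 of the 4 libraries left out in turn, those other than control replicate 1 (adjusted p from 0.066 to 0.22).
Hsp90b1 (chromosome 10, 86690209 to 86705509), which encodes the ER form of HSP90, was at 40.4 and 27.7 CPM in control and 47.1 and 50.5 CPM in fructose. The control libraries stood far apart while the fructose libraries were close to each other. Hsp90b1 rose by a log2 fold change of 0.52 (standard error 0.14, 95% interval 0.21 to 0.83, adjusted p = 0.019). Without control replicate 1 the value was 0.82, and without control replicate 2 it was 0.27 and not called (adjusted p = 0.065). An annotated pseudogene on the opposite strand shares 415 bases with its exons, and the strand setting of the counting is not given in the sources used here. Of the motif letters printed above, Hsp90b1 holds the ERSE at 2 places.

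The other folding genes were not called. Calr (chromosome 8, 84841850 to 84846934), which encodes the lectin chaperone calreticulin, was at 351 and 365 CPM in control and 352 and 335 CPM in fructose. The 95% interval of its log2 fold change ran from -0.24 to 0.12 around -0.06 (adjusted p = 0.63). Pdia4 (chromosome 6, 47796141 to 47813430), which encodes the disulfide isomerase ERp72, was at 53.6 and 47.3 CPM in control and 52.0 and 52.3 CPM in fructose. Its fructose libraries lay between its control libraries, with an interval from -0.15 to 0.25 around 0.05 (adjusted p = 0.74). Herpud1 (chromosome 8, 94386438 to 94395377), which encodes an organizer of the ubiquitin ligase complex of ER-associated degradation, was at 65.2 and 75.0 CPM in control and 69.6 and 66.6 CPM in fructose. Both fructose libraries again lay between the control libraries, with an interval from -0.24 to 0.16 around -0.04 (adjusted p = 0.77). Each of these 3 intervals overlapped that of Hspa5 (0.08 to 0.44), and differences between genes were not tested. With both trends described below removed, Calr (0.19), Pdia4 (0.20) and Herpud1 (0.30) were above Hspa5 (0.17).
Of the 3 genes with an ERSE, Hspa5 and Hsp90b1 were called and Calr was not. Dnajb9, with the largest difference, held none of the 4 motifs in its window.

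**Figure D2:**
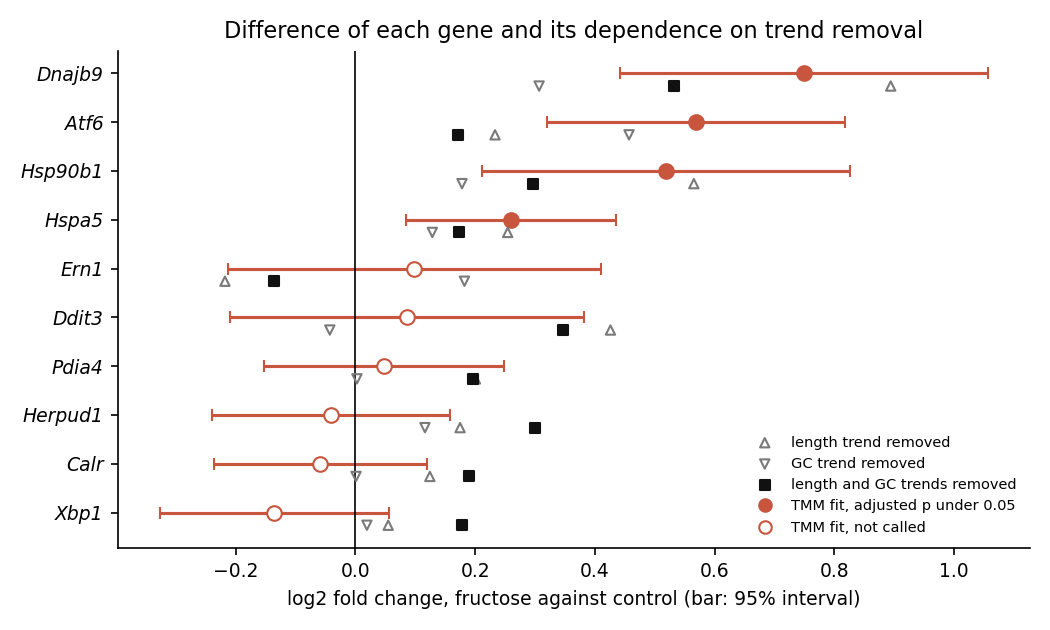
Log2 fold change of each of the 10 genes, fructose against control (circles, filled where the adjusted p-value is under 0.05, bars for the 95% interval), and the value with the transcript length trend, the GC content trend or both removed from each library. With both trends removed the values run from -0.14 (Ern1) to 0.53 (Dnajb9), and those of Xbp1, Calr and Herpud1 move from below 0 to above 0. The median over all tested genes is then 0.072.

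The log2 fold change over all tested genes rose with transcript length (Spearman's rho 0.50 across genes, which are not independent replicates) and fell with GC content (rho -0.50). The 4 called genes had transcripts with a GC content of 40.6% (Dnajb9), 42.1% (Hsp90b1), 45.6% (Hspa5) and 46.0% (Atf6). The 6 other genes ranged from 45.6% (Ddit3) to 53.0% (Xbp1 and Herpud1). The medians were 43.8% and 50.3%, beside 50.01% over all tested genes. The longest transcripts of the 10 ranged from 969 bases (Ddit3) to 7246 bases (Atf6). Their median was 3447 bases for the 4 called genes and 2156.5 bases for the 6 others, beside 3433 over all tested genes. Atf6, Ern1, Hspa5, Hsp90b1 and Dnajb9 had the longest transcripts of the 10 and also the highest log2 fold changes. Among them the order was not the same. Dnajb9, with the largest difference, had a transcript of 2461 bases, below the median over all tested genes, while Ern1, at 0.10, had one of 6946 bases. The median log2 fold change of the 10 went from 0.09 to 0.22 with the length trend removed and to 0.19 with both trends removed. The median over all tested genes went from 0.0025 to 0.072 with both trends removed, so 0 was not the centre of that fit. That median is not given here for the fits with a single trend removed, so values in those fits lack this reference.
With both trends removed from each library, 2 of the 10 genes were called higher, beside 5.35% of all tested genes, and none lower, beside 3.4%. They were Dnajb9 (log2 fold change 0.53, adjusted p = 0.034) and Herpud1 (0.30, adjusted p = 0.048). Atf6 was then at 0.17 (adjusted p = 0.43), Hsp90b1 at 0.30 (adjusted p = 0.19) and Hspa5 at 0.17 (adjusted p = 0.19). With the GC content trend alone removed, Atf6 kept its call (0.46, adjusted p = 0.027) and the other 3 lost it, at 0.31 for Dnajb9, 0.18 for Hsp90b1 and 0.13 for Hspa5. With the length trend alone removed, Dnajb9 (0.89) and Hsp90b1 (0.57) kept their calls and Ddit3 gained one (0.43, adjusted p = 0.049), while Atf6 (0.23) and Hspa5 (0.25) lost theirs. Each of the 4 genes stayed above 0 in all 15 alternatives, and no gene was called in all of them.

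**Figure D3:**
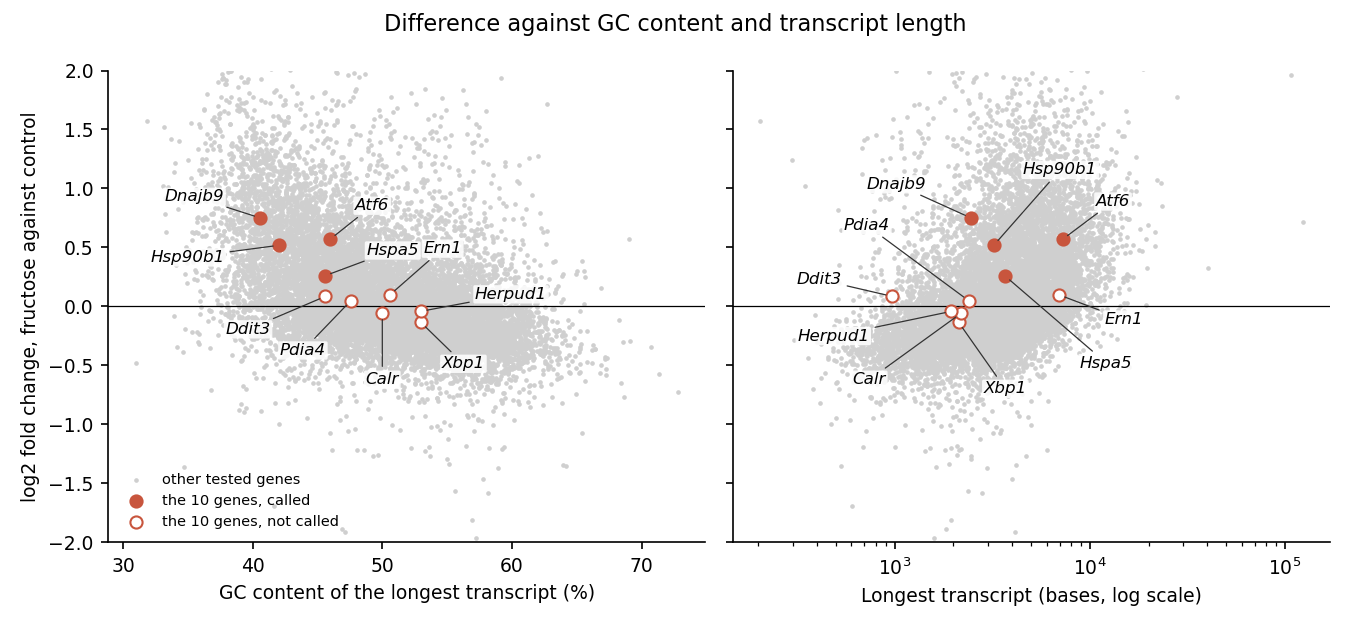
Log2 fold change, fructose against control, of the tested genes (grey) and the 10 genes (circles, filled where called) against the GC content (left) and the length (right, log scale) of the longest transcript. The axis runs from -2 to 2 and leaves out 77 genes. The 4 called genes have a GC content between 40.6% and 46.0%, and the 6 others between 45.6% and 53.0%. The transcripts of the 4 called genes have 2461 to 7246 bases, and those of the 6 others 969 to 6946 bases.

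The rest of the ER pathway was described with 8 lists, in which 170 of 175 genes were tested. Of these, 22 were called higher (12.9%) and 29 lower (17.1%), beside 15.5% and 10.7% of all tested genes. The genes called higher had a median GC content of 42.5% and a median transcript length of 4571 bases, and those called lower 53.1% and 1997 bases. With both trends removed, 7 were called higher and 8 lower, of which 4 and 4 had the same call before. Over all tested genes these shares were then 5.35% and 3.4%. The median log2 fold change over all tested genes was 0.0025, and 0.072 with both trends removed, which the list medians below are to be read beside.

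**Figure D4:**
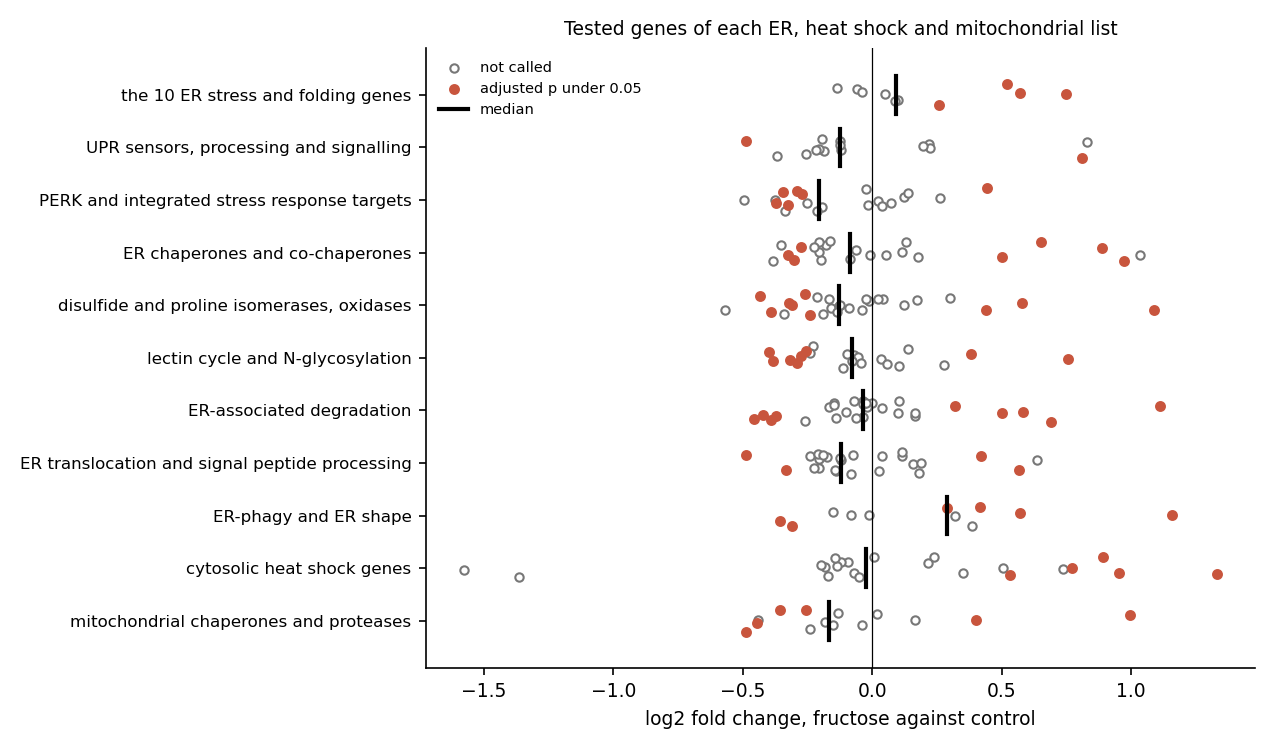
Log2 fold change, fructose against control, of every tested gene of the 10 genes and of the 10 other lists (points, filled where the adjusted p-value is under 0.05) with the list medians (bars; vertical scatter within a list is arbitrary). Medians run from -0.20 (PERK and integrated stress response targets) to 0.29 (ER-phagy and ER shape), and most lists hold called genes on both sides of 0.

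Among the other sensors and signalling genes, 1 of 15 tested was called higher and 1 lower, with a median log2 fold change of -0.13 that turned to 0.11 with both trends removed. Mbtps2, which lies on chromosome X and encodes a protease that cuts ATF6, rose by 0.81 (standard error 0.22, adjusted p = 0.019). Whether this goes with the difference in Y-linked counts given above was not tested. It was at 2.90 and 3.22 CPM in control and 5.17 and 5.55 CPM in fructose. Bax, a cell death gene, fell by 0.49 (adjusted p = 0.0075). Neither was called with both trends removed, with Mbtps2 at 0.27 (adjusted p = 0.47) and Bax at 0.06 (adjusted p = 0.78). Mbtps1, the other protease of ATF6, was at 133 and 146 CPM in control and 131 and 125 CPM in fructose and was not called (-0.13, adjusted p = 0.29), although it was called lower with both trends removed (-0.36, adjusted p = 0.023). The PERK gene Eif2ak3 was at 18.9 and 17.8 CPM in control and 20.3 and 22.4 CPM in fructose, a difference the test did not call (0.22, adjusted p = 0.20). Ern2, the gut form of IRE1, had 0 CPM in all libraries. The highest length-scaled levels were those of Tmbim6 (206 CPM per kilobase, mean of 4 libraries), an ER membrane cell death suppressor, and Rtcb (50.7), the ligase that joins the ends of cut Xbp1 mRNA, and neither was called.

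Targets of PERK and ATF4 had 1 gene called higher and 5 lower of 20 tested, with a median of -0.20. The median was -0.01 without fructose replicate 2 and -0.31 without fructose replicate 1. Atf4 itself, at 133 and 127 CPM in control and 111 and 90.5 CPM in fructose, fell by 0.37 (standard error 0.10, adjusted p = 0.018). Ddit4, Sesn2, Sars and Eif4ebp1 were the others called lower, with log2 fold changes from -0.27 to -0.35. Cebpg, a partner of ATF4, rose by 0.44 (adjusted p = 0.0098). Asns, asparagine synthetase, had the highest length-scaled level of this list (73.6 CPM per kilobase) and was not called (-0.37, adjusted p = 0.11), with control replicate 2 at 278 CPM and the other libraries between 163 and 188 CPM. With both trends removed none of the 6 was called, Atf4 was at -0.01 and the median was -0.0066.

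The other ER chaperones and co-chaperones had 4 genes higher and 3 lower of 23 tested (median -0.09, and 0.13 with both trends removed). Dnajc1 rose by 0.97 (adjusted p = 0.0022), Hspa13 by 0.89 (adjusted p = 0.017), Dnajc3 by 0.65 (adjusted p = 0.0046) and Dnajc10 by 0.50 (adjusted p = 0.021). Dnajc1, at 5.49 and 4.94 CPM in control and 10.4 and 10.04 CPM in fructose, was also called with both trends removed (0.79, adjusted p = 0.017), and the other 3 were not. Cnpy2 (-0.32), Rcn3 (-0.30) and Sdf2 (-0.28) were called lower, and none of them with both trends removed. Serpinh1, the collagen chaperone HSP47, had the highest length-scaled level (366 CPM per kilobase) and Calu, a calcium-binding protein, the next (47.7), and neither was called. Partners of BiP were found on both sides of the threshold. Dnajc1, Dnajc3 and Dnajc10 encode such partners, as do Hyou1 (0.11), Dnajb11 (0.05), Sil1 (-0.18), Manf (-0.20) and Sdf2l1 (-0.38), which were not called.
Disulfide isomerases, oxidases and proline isomerases had 3 genes higher and 6 lower of 27 tested (median -0.13, and 0.09 with both trends removed). The 3 were membrane-bound thioredoxin-like genes, Tmx3 (1.09, adjusted p = 0.0028), Tmx4 (0.58, adjusted p = 0.045) and Tmx1 (0.44, adjusted p = 0.040), and none was called with both trends removed. Gpx7, an ER peroxidase, was the lowest of those called (-0.43, adjusted p = 0.011). Of these 6, only Erp29 was also called lower with both trends removed (-0.50, adjusted p = 0.0057). P4hb, the main disulfide isomerase, had the highest length-scaled level (96.7 CPM per kilobase) and was not called (-0.21, adjusted p = 0.092), nor was Tmx2 (50.4 CPM per kilobase).

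In the lectin cycle and N-glycosylation, 2 genes were higher and 6 lower of 21 tested (median -0.08, and 0.04 with both trends removed). Canx, the membrane-bound relative of Calr, was at 62.2 and 58.4 CPM in control and 78.3 and 78.9 CPM in fructose, and rose by 0.38 (adjusted p = 0.0067). Canx and Calr thus gave different calls, but the difference between their changes was not tested, and Canx was at 0.04 with both trends removed. Magt1, an oxidoreductase of the oligosaccharyltransferase, rose by 0.76 (adjusted p = 0.0034), and was at 0.29 with both trends removed and not called (adjusted p = 0.18). Dad1, Ost4 and Ddost, subunits of the same enzyme, fell by 0.40, 0.32 and 0.29 on the log2 scale, and Dad1 was also called with both trends removed (-0.41, adjusted p = 0.012). Ost4 and Ddost were then at 0.07 and 0.06 and not called. Stt3a, a further subunit, was not called (-0.24, adjusted p = 0.062) but was called lower with both trends removed (-0.85, adjusted p = 0.00084). Mcfd2 was then called higher (0.30, adjusted p = 0.038). Ost4 (84.0 CPM per kilobase) and Ddost (66.5) had the highest length-scaled levels of the list.
ER-associated degradation, the pathway of Herpud1, had 5 genes higher and 4 lower of 28 tested (median -0.03, and 0.03 with both trends removed). Edem3, a mannosidase that marks glycoproteins for removal, rose by 1.11 (standard error 0.17, adjusted p = 0.0011), from 5.17 and 5.05 CPM to 10.4 and 11.7 CPM. Edem3, Fam8a1 (0.69), a partner of the ligase complex, and Ubxn4 (0.58) were also called higher with both trends removed, and Ubxn6 (-0.46) was also called lower. Sel1l, Syvn1 and Edem1, core factors of the pathway and known targets of XBP1 or ATF6, were not called (0.10, -0.10 and 0.04). Derl1 (88.8 CPM per kilobase) and Vcp (63.1) had the highest length-scaled levels and were not called.
Translocation and signal peptide genes had 2 higher and 2 lower of 25 tested (median -0.12, and -0.05 with both trends removed). Sec63 rose by 0.57 and Sec62 by 0.42, both of which encode partners of the translocon, and Ssr4 fell by 0.49 and Ssr2 by 0.33, which encode subunits of the TRAP complex. None of these 4 was called with both trends removed. Srp68 was then called higher (0.31, adjusted p = 0.034) and Ssr1, a further TRAP gene, lower (-0.46, adjusted p = 0.0092). Without trend removal neither was called (0.04 and 0.12). Ssr2 had the highest length-scaled level (118 CPM per kilobase) and Spcs1 the next (53.4).
In ER-phagy and ER shape, 4 genes were higher and 2 lower of 11 tested (median 0.29, 0.17 without control replicate 2 and 0.10 with both trends removed). Lnpk, which stabilizes tubule junctions, rose by 1.16 from 1.42 and 0.887 CPM to 2.74 and 2.45 CPM (adjusted p = 0.026). The atlastin genes Atl3 (0.57) and Atl2 (0.42) and Rtn4 (0.29) also rose, but with both trends removed none of the 11 was called higher. Reep5, which curves ER tubules and had the highest length-scaled level (96.3 CPM per kilobase), fell by 0.36, also with both trends removed (-0.32, adjusted p = 0.037). Rtn3, the next by level (60.1 CPM per kilobase), was at -0.01.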

How the data were processed

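The authors filtered reads with Fastp, mapped them to mm10 with Bowtie2 and TopHat2, and assembled and merged transcripts with StringTie and Cuffmerge. They deposited raw counts per gene, without normalization. The counting tool, its strand setting, its treatment of reads matching several genes and the annotation release are not given in the sources used here, so values of paralogs, pseudogene parents and overlapping genes are uncertain. The single-library tables were identical to the combined table.

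Ensembl identifiers were matched to GENCODE vM21 (GRCm38), and 43 of 22298 had no match. Genes kept by filterByExpr (12888) were tested with edgeR 4.0.16 in R 4.3.3 (quasi-likelihood, TMM, no covariate, two-sided, Benjamini-Hochberg over all tested genes), the groups being 2 control and 2 fructose libraries. Standard errors are the log2 fold change over the root of the F statistic. CPM per kilobase uses the union of annotated exons. Length and GC content are those of the longest transcript, and their trends were removed by lowess (span 0.3) as offsets. The other alternatives were DESeq2 1.42.0, other scalings and filters, the replicate block and each library left out in turn. Promoters are RefSeq's.

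The members and lists were chosen with earlier results of these data known. Beside the 10 genes, the genes named are from each list the 2 with the highest length-scaled level and the called genes with the highest and lowest log2 fold change. Further genes were named after their values were seen. Library totals give the precision, as counts of the 10 genes were between 169 and 8215.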

Additional observations from a re-analysis of the deposited data

How the results depend on the processing

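The 4 calls among the 10 genes became 1 with the GC content trend removed, 2 with the length and GC trends removed, 0 with both trends removed and the replicate block, and 2 (without control replicate 2) to 4 with each library left out in turn, where the lone library of a group is assumed to vary like the other group. No gene of the 10 was called lower in any alternative. Over all genes, the 2001 higher calls became 1280 with DESeq2, 1207 with the length trend removed, 689 with both trends removed, 514 with both and the replicate block, and 1207 (without fructose replicate 2) to 2225 with a library left out. The 1379 lower calls became 859 when scaled by library size only (72.3% of calls higher, against 59.2%), 724 with the length trend, 748 with the GC trend and 438 with both trends removed, 335 with both and the block, and 485 to 1700 with a library left out (485 without fructose replicate 2 and 825 without fructose replicate 1). Calls rose as well as fell with a library left out. Fewer libraries leave fewer degrees of freedom, but the cause of all these moves was not tested. Uncalled genes changed sign as follows. With the length trend removed, Ern1 was at -0.22, Xbp1 at 0.055, Calr at 0.12 and Herpud1 at 0.17. With the GC trend removed, Xbp1 was at 0.019, Ddit3 at -0.043, Calr at 0.00098 and Herpud1 at 0.12. With both trends removed, Ern1 was at -0.14, Xbp1 at 0.18, Calr at 0.19 and Herpud1 at 0.30, and at -0.14, 0.18, 0.19 and 0.30 with the replicate block too. The median over all tested genes was 0.0025 in the main fit and 0.072 with both trends removed, and is not given here for a single trend removed. Scaled by library size only, Calr was at 0.0022 and Herpud1 at 0.020. With a library left out, Ddit3 ran from -0.058 to 0.24, Pdia4 from -0.038 to 0.14 and Herpud1 from -0.14 to 0.064, with the changed sign without control replicate 2. The labels share replicate numbers, but same-numbered libraries did not deviate together (correlation across genes -0.0266), so the numbers were taken as names. The replicate block alone left 4 calls among the 10 genes, with 2117 higher and 1441 lower over all genes. Dnajb9 lost its call when the block was added to the removal of both trends (adjusted p = 0.052). All 10 genes had enough counts to be tested, but 5 of 175 pathway genes were too low to test. Precision differed among the 10, with standard errors of 0.14 for Ern1 (219 to 312 counts) and 0.08 for Calr (6576 to 8215 counts).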

Other observations

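Outside the ER, cytosolic heat shock genes had 5 members called higher and none lower of 22 tested, beside 15.5% and 10.7% of all tested genes. The median was -0.02, against 0.18 without control replicate 1 and 0.14 with both trends removed. With both trends removed, 4 were called higher and 1 lower, beside 5.35% and 3.4% of all tested genes. The 1 lower was Tcp1, a subunit of the cytosolic chaperonin (-0.46, adjusted p = 0.0066). Hsp90aa1, the inducible cytosolic relative of Hsp90b1, was at 25.0 and 20.7 CPM in control and 36.3 and 41.7 CPM in fructose, and rose by 0.77 (standard error 0.12, adjusted p = 0.0012), and by 0.64 with both trends removed (adjusted p = 0.0083). Hspa4, an exchange factor of HSP70, rose by 0.53 and its relative Hspa4l by 1.33. Hspb8, a small heat shock protein gene also expressed in muscle, rose by 0.89, and Dnajb4 by 0.95. The cytosolic chaperones with the highest length-scaled levels, Hsp90ab1 (258 CPM per kilobase) and Hspa8 (193), were not called (0.0054 and -0.09). The near-identical stress genes Hspa1a and Hspa1b, between which reads could have been split, were high in 1 library of each group. Hspa1a was at 10.03 and 0.776 CPM in control and 3.45 and 0.816 CPM in fructose, and Hspa1b at 10.9 and 1.05 CPM in control and 3.01 and 1.06 CPM in fructose, and neither was called.

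Mitochondrial chaperones and proteases had 2 genes higher and 4 lower of 14 tested, beside 15.5% and 10.7% of all tested genes (median -0.17, and 0.0082 with both trends removed). Yme1l1, a protease of the inner membrane, rose by 0.997 and Clpx, the unfoldase of the matrix protease, by 0.40, while Clpp, the protease subunit that works with CLPX, fell by 0.45. Htra2 (-0.49), Hspe1 (-0.36) and Trap1 (-0.26) were also called lower. With both trends removed, of these 6 only Clpx was called (0.36, adjusted p = 0.023), beside 5.35% higher and 3.4% lower of all tested genes. Hspe1 (187 CPM per kilobase) and Hspa9 (175) had the highest length-scaled levels. Genes of the mitochondrial genome took 5.89% and 6.49% of counts in control, against 10.8% and 11.2% in fructose.

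The exact ERSE letters were in the promoters of 37 genes, of which 18 were tested. Of these 18, 5 were called higher and none lower, beside 15.5% higher and 10.7% lower of all tested genes. The 5 were Hspa5, Hsp90b1, Canx, Dnajc3 and Hnrnpa3. With both trends removed, Hspa5 (0.17), Hsp90b1 (0.30), Canx (0.04) and Dnajc3 (0.27) were no longer called. Hnrnpa3 is in none of the lists, and its value in that fit is not given here. The median log2 fold change of the 18 was 0.14. Creld2 (-0.35, adjusted p = 0.10), Pdia6 (-0.13), Syvn1 (-0.10), Calr (-0.06) and Ero1lb (0.02), which are ER genes of the same group, were not called. These genes were listed after the values of the 10 genes were known, and no test of the group was made.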
